A study of Homo sapiens with 2 samples.

Results

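The microRNAs (miRNAs) miR-26a and miR-26b were examined in CL1-5, a human lung adenocarcinoma cell line known for its high invasiveness. Of the 365 miRNA assays measured, 2 were members, chosen by name: the assay named miR-26a and the assay named miR-26b, with 1 assay number each. The ANGPTL1 sample came from CL1-5 cells stably overexpressing ANGPTL1, a secreted angiopoietin-like protein, and the control sample from CL1-5 cells carrying the empty vector pcDNA3.1. Both had been selected with the antibiotic G418 for 4 weeks. For each of these 2 samples, 500 ng of total RNA was reverse transcribed in multiplex and amplified over 40 cycles on a TaqMan low density card. There was 1 sample per group, so no value below carries an error and no difference could be tested. All differences compare these 2 RNA samples and not the conditions in general. Whether either line was 1 clone or a pool is not given in the sources used here, and the card held no assay of the ANGPTL1 transcript.

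miRNAs are short RNAs cut from a hairpin precursor that guide Argonaute proteins to messenger RNAs, mainly through the seed near their 5′ end. The miR-26 hairpins are known to lie in introns of CTDSPL, CTDSP2 and CTDSP1, genes of small phosphatases that act on the RNA polymerase II tail and, for some members, on the retinoblastoma protein RB1. miR-26a and miR-26b are known to repress EZH2, the histone H3 lysine 27 methyltransferase of Polycomb repressive complex 2, as well as G1 cyclins and cyclin-dependent kinases.

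The mature sequences, from RefSeq (GRCh38.p14), are shown with the seed, bases 2 to 8, in capitals, because both members have the same one.
miR-26a: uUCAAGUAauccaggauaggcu
miR-26b: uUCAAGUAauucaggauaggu
The mature miR-26a has 22 bases and miR-26b has 21. Counted from 1 at the 5′ end, with miR-26a first, they differ at 2 of the 21 positions compared, C11U and C21U, both outside the seed. Among the mature names in RefSeq, 4 carry this seed, the others being miR-1297 and miR-4465, and only the 2 members had an assay among those analysed. How far each assay also reads the other sequence was not tested.

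The hairpins are shown, with the mature miRNA in capitals, because the miR-26a assay cannot separate its 2 source genes.
MIR26A1: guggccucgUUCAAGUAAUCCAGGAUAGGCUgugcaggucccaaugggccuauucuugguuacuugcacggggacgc
MIR26A2: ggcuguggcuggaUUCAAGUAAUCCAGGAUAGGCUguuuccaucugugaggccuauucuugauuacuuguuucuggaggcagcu
MIR26B: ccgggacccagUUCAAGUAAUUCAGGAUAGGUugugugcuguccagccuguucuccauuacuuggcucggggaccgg
In GRCh38.p14, MIR26A1 lies on chromosome 3 from 37969404 to 37969480 on the plus strand, within the bounds of CTDSPL (37861880 to 37984469). MIR26A2 lies on chromosome 12 from 57824609 to 57824692 on the minus strand, the strand of CTDSP2, within whose bounds (57819927 to 57846729) it falls. MIR26B lies on chromosome 2 from 218402646 to 218402722 on the plus strand, the strand of CTDSP1, and within its bounds (218396351 to 218405941). MIR26A1 and MIR26A2 give the same mature sequence, so the miR-26a assay cannot separate the CTDSPL locus from the CTDSP2 locus. The mature miR-26b sequence is annotated at the CTDSP1 locus alone. The annotation table used gives gene bounds and no exons.

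Levels were read as the threshold cycle (Ct), the point of the amplification at which the dye signal passes a fixed threshold. A Ct that is 1 cycle lower stands for about 2 times as much template if the product doubles in each cycle. A miRNA counted as detected below Ct 35. By this limit 158 miRNAs were detected in ANGPTL1 cells and 157 in control cells, of which 145 were detected in both. The small nucleolar RNA RNU48, the authors' endogenous control, stood at Ct 21.21 in ANGPTL1 cells and 20.79 in control cells. As a check of the cell label, 18 marker miRNAs of epithelium, blood, muscle, liver, neurons and fibroblasts were read. Of these 18 markers, 13 were detected in neither sample and 3 in both. Over the whole card, 145 of 365 miRNA assays were detected in both samples, so many assays of any kind were not detected. Among 5 epithelial markers, miR-200c and miR-203 were detected in both samples, while miR-200b and miR-205 stood at Ct 40, the last cycle, in both. The fifth, miR-141, stood at Ct 35.40 in ANGPTL1 cells and 40 in control cells. miR-200a was listed too but not counted, since 2 assays share that name, and both were past Ct 35 in both samples. Of the other types, the markers detected were miR-133b (muscle) in both samples, miR-137 (neurons) in ANGPTL1 cells alone and miR-142-3p (blood) in control cells alone. Whether other cells contributed to the miR-26 values was not tested.

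Both members were among the more abundant miRNAs of the card in both samples. miR-26a crossed threshold at Ct 24.30 in ANGPTL1 cells and 24.13 in control cells. It held rank 14 of the 158 miRNAs detected in ANGPTL1 cells and rank 14 of the 157 in control cells, with rank 1 the earliest. miR-26a thus kept its rank in the order of cycles.

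miR-26b crossed threshold at Ct 25.62 in ANGPTL1 cells and 25.67 in control cells. Its rank was 24 of 158 in ANGPTL1 cells and 27 of 157 in control cells. Both members stood earlier than the median detected miRNA, which was at Ct 29.90 in ANGPTL1 cells and 29.36 in control cells. They lay far from the detection limit: miR-26a was 10.70 cycles before it in ANGPTL1 cells and 10.87 in control cells, and miR-26b was 9.38 cycles before it in ANGPTL1 cells and 9.33 in control cells.

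**Figure D1:**
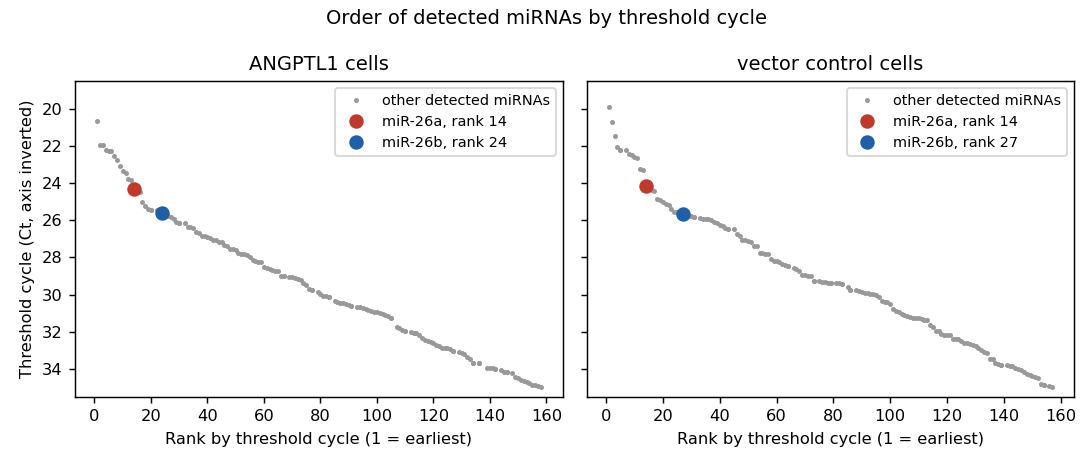
Threshold cycle (vertical axis, inverted so that abundant miRNAs are at the top) against rank for every miRNA detected below Ct 35, with ANGPTL1 cells on the left and vector control cells on the right. Each point is 1 assay. miR-26a has rank 14 in both panels, and miR-26b has rank 24 in ANGPTL1 cells and 27 in control cells.

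The miRNAs around the members in this order were partly different in the 2 samples. All 13 assays earlier than miR-26a in ANGPTL1 cells were also the 13 earlier than it in control cells. Directly before miR-26a stood miR-93, of the MCM7 intron cluster, at Ct 23.82 in ANGPTL1 cells, and miR-29a at Ct 23.29 in control cells. Directly after it stood miR-125b at Ct 24.40 in ANGPTL1 cells, and miR-106b at Ct 24.25 in control cells. These next-later assays were only 0.10 and 0.12 cycles away, so the order of miR-26a and its later neighbour rests on a small difference of cycles.

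miR-26b stood in a denser stretch of the order. In ANGPTL1 cells its neighbours were miR-130a at Ct 25.60 and miR-125a at Ct 25.66. In control cells they were miR-132 at Ct 25.60 and an assay named miR-9 at Ct 25.70, a name shared by 2 assays. All 4 neighbours lay within 0.07 cycles of miR-26b. The assays before it were shared except that miR-130a preceded it in ANGPTL1 cells alone, and miR-103, miR-125a, miR-132 and miR-210 preceded it in control cells alone. miR-125a was near miR-26b in both samples. miR-130a stood at Ct 25.60 in ANGPTL1 cells and 26.29 in control cells, miR-132 at 26.14 in ANGPTL1 cells and 25.60 in control cells, and miR-210 at 25.82 in ANGPTL1 cells and 25.11 in control cells. miR-103 stood at Ct 25.91 in ANGPTL1 cells and 25.55 in control cells. With no replicate spread, whether the ranks of 24 in ANGPTL1 cells and 27 in control cells differ beyond error could not be tested.

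The gap between the members, the Ct of miR-26b minus the Ct of miR-26a, was 1.32 cycles in ANGPTL1 cells and 1.54 cycles in control cells. miR-26a was therefore the earlier member in both samples. If both assays amplified with equal efficiency, the gap would stand for 2.50 times as much miR-26a as miR-26b in ANGPTL1 cells and 2.91 times in control cells. Equal efficiency was not tested. In ANGPTL1 cells 9 assays stood between the members and in control cells 12. The gap was smaller by 0.22 cycles in ANGPTL1 cells, a difference in which the reference RNA cancels.

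The gap was set beside those of other pairs of related miRNAs. Of 32 listed pairs, 25 had both assays detected in both samples under a name that stands on 1 assay, including miR-26a with miR-26b. Several pairs share a member, and each gap also holds any difference in assay efficiency. Over the 24 other pairs the size of the gap ranged from 0.07 to 6.79 cycles in ANGPTL1 cells, with a median of 1.62, and from 0.16 to 7.01 in control cells, with a median of 2.39. In ANGPTL1 cells 10 of these pairs had a smaller gap than the miR-26 pair and 14 a larger one. In control cells 8 had a smaller gap and 16 a larger one. The miR-26 gap was thus neither among the widest nor among the narrowest.

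The closest parallel in gene arrangement is the pair miR-103 and miR-107, which lie in introns of the pantothenate kinase (PANK) genes as the miR-26 miRNAs lie in those of the CTDSP genes. miR-107 was later than miR-103 by 6.79 cycles in ANGPTL1 cells and 5.69 cycles in control cells. This gap was larger by 1.10 cycles in ANGPTL1 cells, where that of the miR-26 pair was smaller by 0.22. miR-221 and miR-222, neighbours in 1 cluster, lay 2.09 cycles apart in ANGPTL1 cells and 2.70 in control cells.

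Of all pairs, miR-30b and miR-30c kept the most similar gap, 0.15 cycles in ANGPTL1 cells and 0.16 in control cells. The pair miR-34a and miR-34c had the largest change, with gaps of 0.30 cycles in ANGPTL1 cells and 2.50 in control cells. The change of the miR-26 gap, 0.22 cycles in size, was exceeded by 18 of the 24 other pairs, whose changes had a median size of 0.49.

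**Figure D2:**
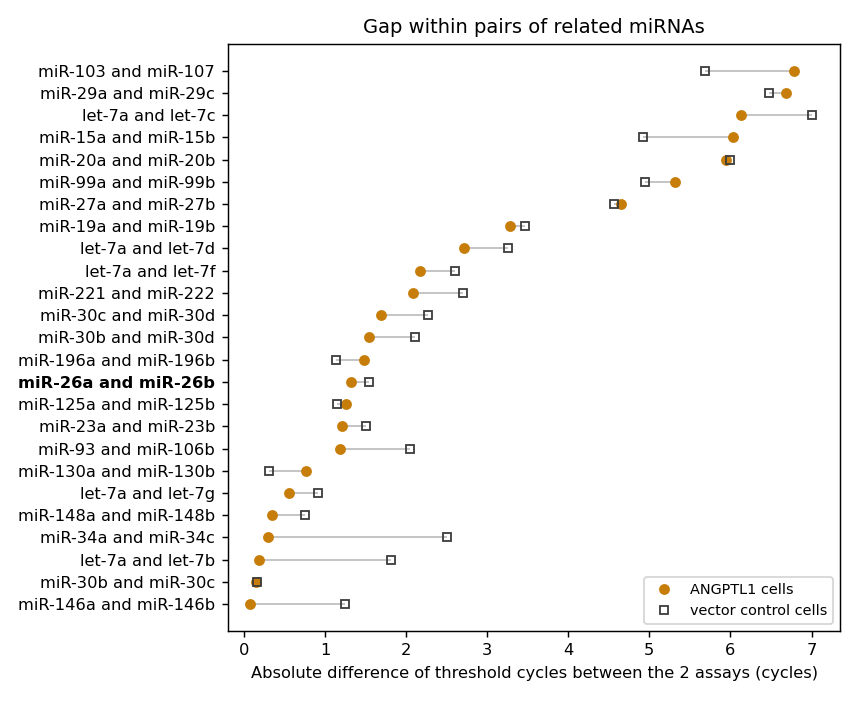
Size of the difference in threshold cycle between the 2 assays of each of 25 pairs of related miRNAs (horizontal axis, cycles), ordered by the gap in ANGPTL1 cells. Filled circles are ANGPTL1 cells and open squares vector control cells, and the line joins the 2 samples. The miR-26 pair lies at 1.32 cycles in ANGPTL1 cells and 1.54 in control cells, in the lower part of the range.

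Relative to RNU48, both members were slightly higher in ANGPTL1 cells, and neither reached 2-fold. The delta Ct of miR-26a, its Ct minus that of RNU48, was 3.09 in ANGPTL1 cells and 3.34 in control cells, a difference of -0.25. The delta Ct of miR-26b was 4.41 in ANGPTL1 cells and 4.88 in control cells, a difference of -0.47. A lower delta Ct means more miRNA, so the log2 ratios of ANGPTL1 over control were 0.25 for miR-26a and 0.47 for miR-26b.

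On the linear scale miR-26a was 1.19-fold and miR-26b 1.39-fold in ANGPTL1 cells over control cells, and the authors' deposited table gives the same values. Of the 145 miRNAs detected in both samples, 7.59% had a ratio of 2-fold or more on the higher side in ANGPTL1 cells and 4.83% on the lower side, together 12.4%. These were 11 and 7 miRNAs, and without normalization the split was 6 higher and 29 lower. Of the 2 members, 0 were past 2-fold in either direction. At 1.5-fold, which 16.6% of the 145 miRNAs reached on the higher side and 19.3% on the lower side, together 35.9%, the count of members was again 0.

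The sign of miR-26a depended on whether a reference was subtracted. Its Ct was later by 0.17 cycles in ANGPTL1 cells, and RNU48 was later by 0.42, so that its delta Ct was lower there. The Ct of miR-26b was earlier by 0.05 cycles in ANGPTL1 cells. Without normalization the log2 ratios were thus -0.17 for miR-26a and 0.05 for miR-26b. With the mean of miR-16, miR-103 and miR-191 as reference they were 0.38 for miR-26a and 0.60 for miR-26b. With the median of the 145 miRNAs as reference they were 0.26 and 0.48, since that median had a log2 ratio of -0.01 relative to RNU48. Under each of these references miR-26b stood 0.22 above miR-26a, which follows from the gap. Which reference is right was not tested.

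**Figure D3:**
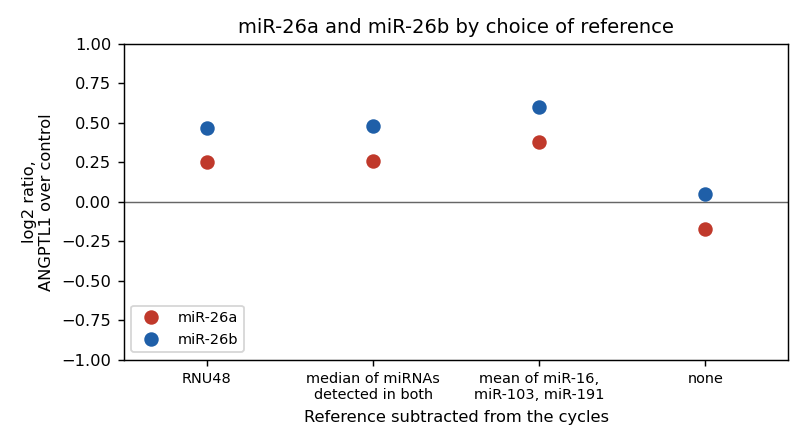
log2 ratio of ANGPTL1 over control (vertical axis) for miR-26a and miR-26b under RNU48, the median of the miRNAs detected in both samples, the mean of miR-16, miR-103 and miR-191, and no reference. Each point is 1 value with no replicate. Both members lie above 0 with the first 3, and without a reference miR-26a lies at -0.17 and miR-26b at 0.05.

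The ratios were also read against other miRNAs of similar abundance. Within 1 cycle of the mean Ct of miR-26a there were 8 other miRNAs detected in both samples. Their log2 ratios ranged from -0.34 to 0.43 with a median of 0.04. Of these 8, 2 lay above miR-26a and 6 below it. In size, 3 of the 8 were at least as far from 0 as miR-26a.

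Within 1 cycle of the mean Ct of miR-26b there were 22 other miRNAs, with log2 ratios from -0.87 to 1.12 and a median of 0.04. Of these, 2 lay above miR-26b and 20 below it. In size, 5 of the 22 were at least as far from 0. Among all 145 miRNAs, ordered from the highest log2 ratio, miR-26b was number 29 and miR-26a number 43. Of the 144 other miRNAs, 62 had a log2 ratio at least as large in size as that of miR-26b, and 95 at least as large as that of miR-26a. Both members thus lay on the upper side of the range of miRNAs of like abundance and inside it.

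**Figure D4:**
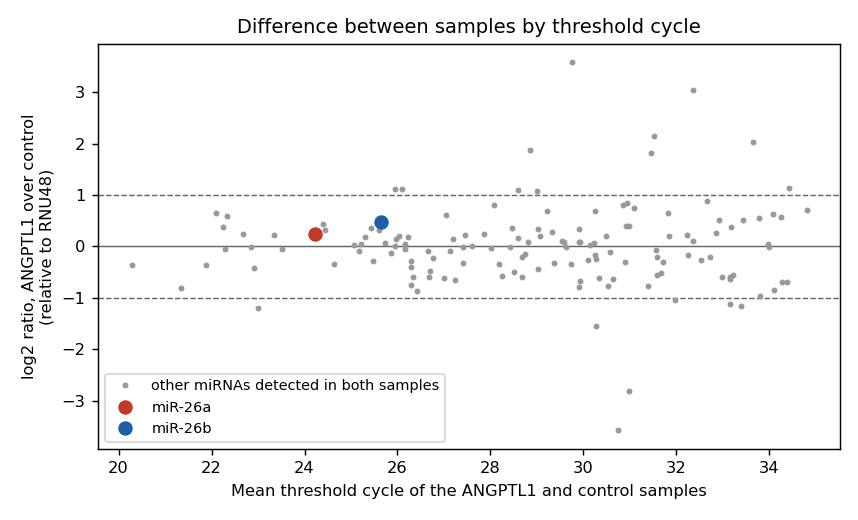
log2 ratio of ANGPTL1 over control relative to RNU48 (vertical axis) against the mean threshold cycle of both samples (horizontal axis) for the 145 miRNAs detected in both. Dashed lines mark 2-fold in each direction. miR-26a at 0.25 and miR-26b at 0.47 lie between the dashed lines, while the ratios of all miRNAs run from -3.58 to 3.58.

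The miRNAs most like each member were those nearest by the Euclidean distance of their 2 cycles, over these 2 samples. For miR-26a they were miR-125b at a distance of 0.30 cycles, miR-15b at 0.32 and miR-106b at 0.72. miR-125b had Ct 24.40 in ANGPTL1 cells and 24.41 in control cells, a log2 ratio of 0.43. miR-15b, which is hosted in an intron of SMC4, had Ct 24.49 in ANGPTL1 cells and 24.39 in control cells, a log2 ratio of 0.32. miR-106b had a log2 ratio of -0.34, of the opposite sign to miR-26a.

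For miR-26b the nearest were miR-125a at 0.12 cycles, miR-103 at 0.31 and miR-484 at 0.33. miR-125a had Ct 25.66 in ANGPTL1 cells and 25.56 in control cells, a log2 ratio of 0.32. The log2 ratio was 0.06 for miR-103 and 0.35 for miR-484. The nearest miRNA of each member was thus a miR-125. The gap within that pair was 1.26 cycles in ANGPTL1 cells and 1.15 in control cells, larger in ANGPTL1 cells where that of the miR-26 pair was smaller. The pair miR-23a and miR-23b, with gaps of 1.21 cycles in ANGPTL1 cells and 1.51 in control cells, was closer to the miR-26 pair in control cells and moved the same way.

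In a chosen list of miRNAs described to repress EZH2, the others measured all had later cycles than miR-26a and miR-26b in both samples. The list does not hold every miRNA so described. Apart from the members, 6 miRNAs of the EZH2 list were measured, and miR-138 was not analysed here. miR-101 stood at Ct 32 in ANGPTL1 cells and 30.80 in control cells, a log2 ratio of -0.78. miR-98, a member of the let-7 family, stood at Ct 31.95 in ANGPTL1 cells and 31.74 in control cells, a log2 ratio of 0.21. miR-137 stood at Ct 33.11 in ANGPTL1 cells, and at 35.74, past the detection limit, in control cells. miR-214 stood at Ct 36.32 in ANGPTL1 cells and 35.77 in control cells, also past the limit, and miR-124a and miR-217 at 40 in both samples.

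Of the 4 listed miRNAs detected in both samples, members included, 0 were past 2-fold, 3 lay above 0 and 1 below, with a median log2 ratio of 0.23 beside -0.01 over all 145 miRNAs. Without the members, miR-98 above 0 and miR-101 below remained, with a median of -0.29, so the sign of the list's median rests on the members. Of those 145, 49.7% lay above 0 and 12.4% reached 2-fold in either direction. After the members, the earliest of the list were miR-98 in ANGPTL1 cells and miR-101 in control cells. Cycles of different assays are comparable only as far as their efficiencies are alike.

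The miRNAs of a second chosen list, described to repress G1 cyclins or the kinases CDK4 and CDK6, lay on both sides of 0. Of the list, miR-29b was not analysed here, and all 11 others measured were detected in both samples. Over the whole card, 145 of 365 miRNA assays were detected in both. The median log2 ratio of the 11 was -0.05. Of these 11, 5 lay above 0 and 6 below. Past 2-fold were let-7b at 1.88 and miR-34c at 2.04 on the higher side and miR-107 at -1.04 on the lower side. Over all 145 miRNAs detected in both samples, 12.4% reached 2-fold in either direction, 49.7% lay above 0 and the median was -0.01. Whether the list differs from all miRNAs was not tested. Earlier than both members in both samples were miR-16, at Ct 22.26 in ANGPTL1 cells and 21.48 in control cells, and miR-29a. The latter stood at Ct 23.76 in ANGPTL1 cells and 23.29 in control cells. miR-15b stood between the members in both samples. With the members the list had a median of 0.09, and 7 of 13 lay above 0. The levels of EZH2, of the cyclins and of the kinases were not measured on the card.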

How the data were processed

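Average threshold cycles, delta Ct values and a fold-change ratio were deposited by the authors. Per the labels' protocols, total RNA was reverse transcribed in multiplex and amplified on a version 1.0 human microRNA card of the TaqMan low density type. Per the file headers, delta Ct is the assay's cycle minus that of RNU48. How many wells were averaged, with which software and threshold, is not given in the sources used here. Deposited delta Ct differed from the difference of deposited cycles by at most 0.01, and the log2 of the deposited ratio from delta delta Ct by at most 1.8e-07.

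The log2 ratio was delta Ct in control cells minus delta Ct in ANGPTL1 cells. Ranks used the Ct, with ties sharing the lowest rank. Python 3.11.15 and pandas 2.3.3 were used. The functions returned known shifts on simulated data without noise, which checks the arithmetic alone. That check covered the RNU48, deposited and unnormalized ratios, and not the median or the 3-miRNA reference. Members and lists were chosen with earlier results of these data known. A further planned list is not reported here. Named were the members, RNU48, the assays next to a member in the order of Ct, the 3 nearest by both cycles, listed miRNAs, and up to 6 pairs: miR-103 with miR-107, miR-221 with miR-222, and those with the largest or smallest gap. Pairs named for the size of a change in gap, and the pairs of miR-125 and miR-23 miRNAs, were chosen after their values were seen. Alternatives were the reference, the detection limit, the fold threshold and the deposited table. Members were matched to RefSeq by name (2 of 2). The precision of a cycle is unknown without replicates.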

Additional observations from a re-analysis of the deposited data

How the results depend on the processing

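The ranks of both members were the same with detection below Ct 32, below Ct 38 and with no limit, which follows from their early cycles. The gap was the same from the deposited delta Ct, which follows from subtracting the same RNU48 cycle from both assays. The log2 ratio of miR-26a, 0.25, was -0.17 without normalization, which reverses its sign, and 0.38 with miR-16, miR-103 and miR-191 as reference. That of miR-26b, 0.47, was 0.05 without normalization and 0.60 with these 3 miRNAs. The shift equals the difference between the references. miRNAs at least 2-fold higher or lower numbered 11 and 7, against 6 and 29 without normalization, 6 and 2 below Ct 32, 23 and 11 below Ct 38, 24 and 28 at 1.5-fold and 4 and 2 at 4-fold. With other limits, fewer or more assays were counted. No paired analysis was possible because there is 1 sample per group, and no replicate could be left out.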
